A study of Mus musculus with 24 samples.

Results

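The response of quadriceps femoris muscle to heat shock (HS) was compared between R6/2 and wild type mice, as the difference of both genotypes' responses on the log2 scale. The comparison used 8 of the 24 RNA-seq libraries of the study, 2 mice in each of 4 groups (wild type control, wild type HS, R6/2 control and R6/2 HS), chosen by their labels alone. The other 16 libraries served for the filter, the scaling, the spread of each gene and 1 choice of genes. Of these, the HS and control mice were Hsf1-/- (knockout) mice of 10 wks. The rest were wild type and R6/2 mice of 12 wks and Hsf1-/- mice of 8 wks, given the HSP90 inhibitor HSP990 or vehicle. R6/2 mice carry a transgene of exon 1 of mutant human HTT and are a model of Huntington's disease. All 8 mice compared were 12 wks old, on the background CBA x C57BL/6 F1, and all were anaesthetised with isoflurane and wrapped in a heating pad. For HS the mice were warmed and their core was then kept at 41.5 °C over 15 min, control mice had the pad at 36.9 °C for 21 min, and muscle RNA was taken 4 h later. The control mice were therefore mock-treated rather than undisturbed, and "untreated" below means this control. The transgene is not among the genes counted, so the R6/2 label was not checked against it.

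Heat shock factor 1 (HSF1) is the transcription factor that drives chaperone genes when proteins unfold. It binds heat shock elements, repeats of the short units GAA and TTC in promoters, and its targets include the HSP70 and HSP90 chaperones, the J-domain (HSP40) proteins that hand unfolded clients to HSP70, the exchange factors that release them, and the small heat shock proteins. In skeletal muscle these proteins keep contractile and other long-lived proteins folded, and Bag3 together with HSP70 and small heat shock proteins routes damaged ones to autophagy.

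The 8 libraries held 24062246 to 34629910 counts. The 4 wild type libraries gave 34.2 to 35.9% of their counts to their 20 highest genes, and the 4 R6/2 libraries 14.8 to 19.8%. The TMM factors (the edgeR scaling for such differences in composition) were 0.808 to 0.924 in wild type and 1.19 to 1.35 in R6/2 mice. All 10 muscle fibre markers were detected, which fits the labelled tissue, and their summed level was 220400 to 270200 CPM (counts scaled to TMM-corrected library size) in wild type and 45850 to 89110 CPM in R6/2 libraries. In such bulk samples fewer cells of a type and less RNA per cell cannot be told apart. Of the 10 markers, 9 were called lower in untreated R6/2 mice (6.94% of all genes) and 10 lower after HS (6.33%). None was called in the difference of responses, in which only 0.0727% of all genes were called. The part of this genotype difference in the results below was not tested. Adipocyte markers summed to 1511 CPM in wild type control mouse 1 and to 311 to 840 CPM in the other 7 mice. The 4 Y-linked genes gave 0 counts in 7 libraries and 4 counts in 1, so the mice did not differ in sex by this measure. The mice of a group differed more in the R6/2 groups (chi-square per degree of freedom 111 and 106) than in the wild type groups (24.5 and 30.8).

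Heat shock elements were looked for as letters in RefSeq promoter windows (GRCm38.p6, 250 bases before to 50 after each start). The motif was GAANNTTC or TTCNNGAA, each of which reads the same on both strands, and both can overlap. Of the 10 genes called in the difference of responses (below), 9 had a window and 4 of these held the motif (44.4%). It was held by 10 of 20 chaperones that rose in wild type mice, by 26 of 153 other genes that rose and by 14.0% of the 10838 genes tested that had a window. The stretches that follow are upstream ones that held the motif, with its letters in capitals. Hspd1, Dnaja1 and Dnaja4 were called in the difference of responses, while Hspa1a, Hspa1b and Hsph1 were not. Only a single upstream stretch per window is printed. Another pair upstream of Dnaja4 and a longer run of units elsewhere in the Hsph1 windows are therefore left out. The stretches show how the element looks from 4 units in a row (Hspd1) down to a single pair. The paired genes Hspa1a and Hspa1b have the same letters here.
Hspd1, chr1:55088053-55088082, minus strand: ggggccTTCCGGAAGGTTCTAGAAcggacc
Dnaja1, chr4:40722338-40722357, plus strand: cctctaGAAAATTCtacgag
Dnaja4, chr9:54699463-54699482, plus strand: ctccgcGAACGTTCtgggcc
Hspa1a, chr17:34972247-34972266, minus strand: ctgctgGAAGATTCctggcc
Hspa1b, chr17:34959329-34959348, minus strand: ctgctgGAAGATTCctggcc
Hsph1, chr5:149636356-149636375, minus strand: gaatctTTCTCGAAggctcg

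The HS response (signed log2 fold change) was lower in R6/2 than in wild type mice for 10 genes at an adjusted p below 0.05 (edgeR's quasi-likelihood test of the difference of responses, Benjamini-Hochberg over 13754 genes), and higher for 0 genes. The count depended strongly on single mice, among them control mice of both genotypes and both R6/2 HS mice (last section). Leaving 1 mouse out leaves a group of 1, so such a change need not mean that the difference rested on that mouse. The count was 0 when only the 8 libraries were fitted (572 genes at an unadjusted p below 0.05), while DESeq2 called 34. These 10 were 0.0727% of the genes tested. At an unadjusted p below 0.05, 383 genes had a lower response in R6/2 mice (2.78%) and 286 a higher one. Of the 10, 7 are chaperones or co-chaperones: Bag3, Dnaja1, Dnaja4, Dnajb1, Hsp90aa1, Hspa1l and the mitochondrial chaperonin Hspd1. The other 3 were Nle1, which acts in the making of the large ribosomal subunit, Mboat7, an enzyme of phosphatidylinositol remodelling, and Ankrd34a. The mean level of these genes after HS was 16.8 to 48.0% of that in wild type mice.

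Among the J-domain proteins, Dnaja1 (mm9 chr4:40669183-40684182) was at 4.45 and 4.78 CPM in wild type control, 29.1 and 34.3 CPM in wild type HS, 4.52 and 4.38 CPM in R6/2 control and 8.68 and 9.02 CPM in R6/2 HS mice. The control mice of both genotypes lay together, and both R6/2 HS mice lay between the controls and the wild type HS mice. The response was 6.86-fold in wild type and 1.99-fold in R6/2 mice, a log2 difference of -1.79 (95% interval -2.32 to -1.25, adjusted p = 0.00942). Dnajb1 was at 11.2 and 8.17 CPM in wild type control, 25.6 and 61.9 CPM in wild type HS, 10.2 and 11.6 CPM in R6/2 control and 7.88 and 9.02 CPM in R6/2 HS mice. No rise was seen in either R6/2 HS mouse, and the wild type HS mice differed widely from each other. The log2 difference of responses was -2.55 (SE 0.43, adjusted p = 0.0269). Dnaja4, abundant in muscle, was at 109 and 145 CPM in wild type control, 799 and 664 CPM in wild type HS, 239 and 185 CPM in R6/2 control and 157 and 209 CPM in R6/2 HS mice. The R6/2 HS mice overlapped their own controls, which were above the wild type controls (log2 0.74, adjusted p = 0.116). The log2 difference of responses was -2.74 (SE 0.43, adjusted p = 0.012).

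**Figure D1:**
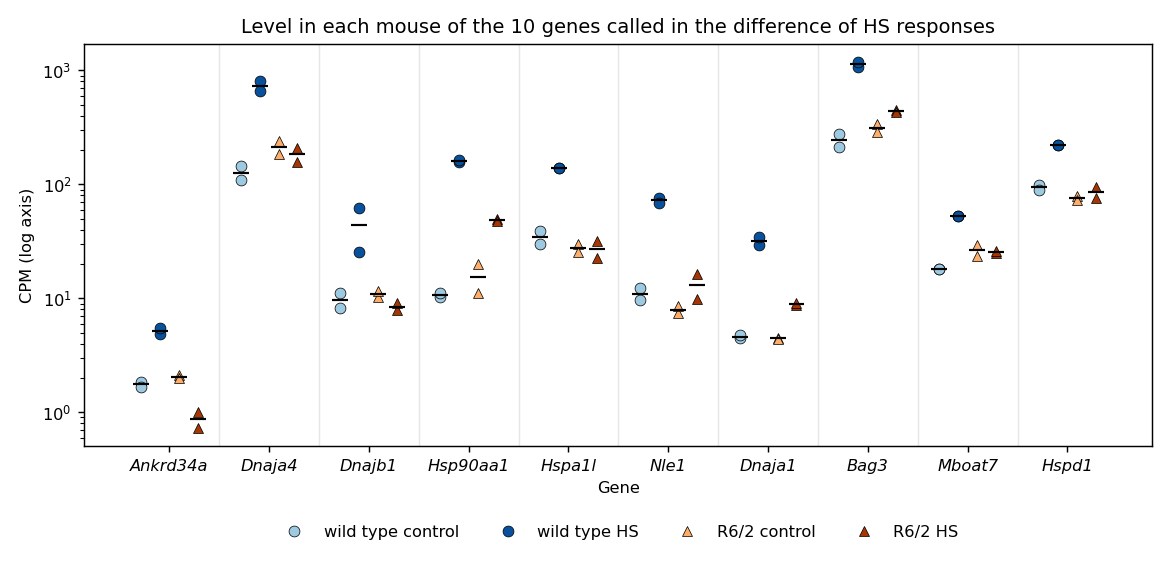
CPM in each mouse (log axis) of the 10 genes called in the difference of HS responses, ordered by that difference. Circles are wild type and triangles R6/2 mice, light symbols are control and dark symbols HS mice, and black bars are the means of 2 mice. The wild type HS mice stand above every other mouse for all 10 genes, while the R6/2 HS mice lie part of the way up for Hsp90aa1, Dnaja1 and Bag3, below their controls for Ankrd34a and close to the range of the control mice for the other 6.

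Hsp90aa1, the stress-inducible cytosolic HSP90 (mm9 chr12:111928815-111940938), was at 10.3 and 11.2 CPM in wild type control, 156 and 164 CPM in wild type HS, 19.8 and 11.2 CPM in R6/2 control and 50 and 47.7 CPM in R6/2 HS mice. It rose in both genotypes, 14.8-fold in wild type (adjusted p = 3.96e-07) and 3.14-fold in R6/2 mice (adjusted p = 0.0101). The gain was 149 ± 5.7 CPM in wild type and 33.3 ± 6.27 CPM in R6/2 mice (the SDs of both groups combined, n = 2 and 2 mice), and the log2 difference of responses was -2.24 (95% interval -2.95 to -1.53, adjusted p = 0.00942). Bag3, the co-chaperone that links HSP70 to autophagy, was at 215 and 278 CPM in wild type control, 1074 and 1178 CPM in wild type HS, 342 and 286 CPM in R6/2 control and 450 and 433 CPM in R6/2 HS mice. All 4 R6/2 mice were above the wild type controls and below the wild type HS mice. The response was 4.58-fold in wild type and 1.41-fold in R6/2 mice (log2 difference -1.70, SE 0.24, adjusted p = 0.00942).

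Hspa1l, an HSP70 gene whose coding region resembles that of Hspa1a and which lies 578 bases from it on the other strand, was at 29.7 and 38.7 CPM in wild type control, 138 and 139 CPM in wild type HS, 29.8 and 25.5 CPM in R6/2 control and 22.8 and 31.9 CPM in R6/2 HS mice. The wild type HS mice stood apart from the other 6 mice, which overlapped (log2 difference of responses -2.03, adjusted p = 0.00942). Hspd1, the subunit of the mitochondrial chaperonin, was at 98.7 and 89.3 CPM in wild type control, 221 and 221 CPM in wild type HS, 79.1 and 72.6 CPM in R6/2 control and 76.0 and 94.7 CPM in R6/2 HS mice. Its log2 difference of responses was -1.07 (SE 0.17, adjusted p = 0.0171). Hspe1, the lid of the same chaperonin, which overlaps Hspd1 head to head in the annotation, had a log2 difference of -0.83 that was not called (adjusted p = 0.845), although it rose in wild type mice (2.54-fold, adjusted p = 0.00108). Among the other called genes, Dnaja1 overlaps Smu1, Dnaja4 overlaps Wdr61, Nle1 overlaps Fndc8 and Mboat7 overlaps Tsen34. Nle1 also lies 2138 bases from Unc45b, which rose in wild type mice (log2 1.30). Whether the counting used strand is not given in the sources used here, so reads in the overlap of such genes may count for either.

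Nle1 was at 12.3 and 9.70 CPM in wild type control, 76.6 and 68.5 CPM in wild type HS, 7.40 and 8.48 CPM in R6/2 control and 16.3 and 9.77 CPM in R6/2 HS mice. Its R6/2 HS mice overlapped the wild type controls, and the log2 difference of responses was -2.01 (SE 0.30, adjusted p = 0.00942). Mboat7 was at 18.2 and 18.3 CPM in wild type control, 52.7 and 53.3 CPM in wild type HS, 29.2 and 23.7 CPM in R6/2 control and 24.7 and 26.1 CPM in R6/2 HS mice. Mboat7 was also called in the untreated difference (log2 0.54 higher in R6/2 mice, adjusted p = 0.0432), and the other 9 were not. That call was lost with only the 8 libraries (adjusted p = 0.0775), without wild type control mouse 1 (0.178) or 2 (0.166) and without R6/2 control mouse 1 (log2 0.38, adjusted p = 0.382), and with library size only Bag3 (0.00113), Hsp90aa1 (0.00388) and Dnaja4 (0.00284) were called higher too. Tmc4, 265 bases away from Mboat7 on the same strand and named after its values were seen, rose in wild type mice too (log2 3.85, adjusted p = 0.00105), with a log2 difference of responses of -3.74. Ankrd34a, low throughout, was at 1.84 and 1.68 CPM in wild type control, 4.85 and 5.49 CPM in wild type HS, 2.11 and 2.00 CPM in R6/2 control and 0.733 and 1.01 CPM in R6/2 HS mice. It was the only one of the 10 whose R6/2 HS mice were both below all control mice, on 32 and 35 counts, and its log2 difference of responses was -2.80 (adjusted p = 0.00942).

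The major inducible HSP70 genes rose steeply from low levels, and the interval of their difference was wide. Hspa1b (mm9 chr17:35093381-35096183) was at 1.84 and 4.89 CPM in wild type control, 853 and 858 CPM in wild type HS, 8.94 and 2.00 CPM in R6/2 control and 124 and 107 CPM in R6/2 HS mice. Hspa1a was at 3.37 and 11.1 CPM in wild type control, 961 and 1063 CPM in wild type HS, 11.7 and 3.90 CPM in R6/2 control and 158 and 119 CPM in R6/2 HS mice. Both genes rose in both genotypes, and the R6/2 HS mice reached 13.5% and 13.7% of the wild type HS mean. The controls overlapped. The treated difference was called for both (log2 -2.89, adjusted p = 0.000985, and log2 -2.87, adjusted p = 0.00207), while the difference of responses was not (log2 -3.58, adjusted p = 0.0595, and log2 -2.96, adjusted p = 0.278). Their sequences are nearly identical and reads could have been split between them, so the counts were also summed. The sum had a log2 difference of responses of -3.20 (95% interval -4.68 to -1.71, adjusted p = 0.194). Hsph1, the HSP110 exchange factor, was also just outside the threshold (log2 difference -1.38, adjusted p = 0.0595). It was at 114 and 113 CPM in wild type control, 367 and 391 CPM in wild type HS, 111 and 113 CPM in R6/2 control and 118 and 169 CPM in R6/2 HS mice.

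Hspa8, Hspb1, Cryab and Hsf1 gave less clear values. Hspa8, the constitutive HSP70, was at 32.5 and 42.5 CPM in wild type control, 221 and 225 CPM in wild type HS, 49.4 and 119 CPM in R6/2 control and 195 and 171 CPM in R6/2 HS mice, and neither response was called (adjusted p = 0.164 and 0.77). Its treated difference was log2 -0.29 with a wide interval (-1.98 to 1.41). The small heat shock protein gene Hspb1 rose in wild type mice (log2 2.84, adjusted p = 0.00132) and was lower in R6/2 after HS (log2 -1.29, adjusted p = 0.0409), with a difference of responses that was not called (log2 -1.87, adjusted p = 0.682). The treated call of Hspb1 was lost with library size only (log2 -0.71, adjusted p = 0.148), with only the 8 libraries (0.0957) and without R6/2 HS mouse 2 (log2 -0.89, adjusted p = 0.208), and its difference of responses was log2 -1.18 without R6/2 control mouse 1. Cryab, which encodes alphaB-crystallin, had a treated difference of log2 -1.40 (adjusted p = 0.0259) and a wild type response that was not called (log2 1.27, adjusted p = 0.115). The treated call of Cryab was lost with library size only (log2 -0.82, adjusted p = 0.0917) and without R6/2 HS mouse 1 (0.104) or 2 (0.0936). Hsf1 itself was at 60.8 to 68.6 CPM in the 4 wild type and 47.2 to 53.7 CPM in the 4 R6/2 mice, with responses of log2 0.10 and 0.05. Its untreated difference of log2 -0.35 was not called (adjusted p = 0.0753), and its treated difference of log2 -0.40 had an adjusted p of 0.0468, which was 0.0516 to 0.164 without any 1 of the 4 control mice or the 2 R6/2 HS mice and 0.124 with only the 8 libraries. With library size only both differences of Hsf1 turned sign (log2 0.19 and 0.17, neither called).

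A difference of responses equals the treated difference between genotypes minus the untreated one, so a smaller response can come from a lower level after HS or from a higher level before it. For 21 of the 23 chaperones that rose in wild type mice the treated difference was the larger of both in size. Of 100 chaperone genes tested (7 lists), 23 rose in wild type mice (1.59% of all genes rose) and 3 in R6/2 mice, Hspa1a, Hspa1b and Hsp90aa1 (0.0436% of all genes). In such counts a gene rose only if it was called higher. Of the 23, 21 were lower in R6/2 than in wild type mice after HS (6.33% of all genes were lower and 5.66% higher). Only 1 of the 23 was called higher in untreated R6/2 mice (5.5% of all genes were higher) and 3 were called lower (6.94% of all genes were lower). With library size only these counts were 10 and 0 (5756 and 254 of all genes). The median untreated difference over the 23 was log2 0.10, the median treated difference log2 -1.35 and the median difference of responses log2 -1.11, against 0.01, 0.02 and 0.02 over all genes. All 23 had a difference of responses below 0, and in all 23 both R6/2 HS mice were below both wild type HS mice (24.8% of all genes). Because these 23 were chosen by their wild type response, which uses the same mice, their counts describe them and are no separate test.

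**Figure D2:**
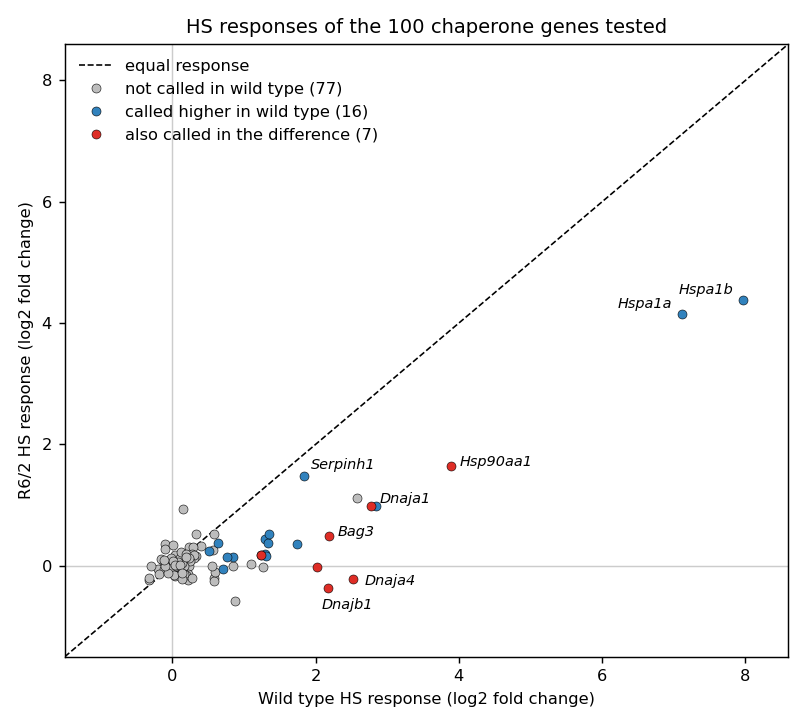
HS response in wild type (horizontal axis) and R6/2 mice (vertical axis), as log2 fold changes, of the 100 chaperone genes tested. Grey points were not called in wild type mice (77), blue points rose in wild type mice (16) and red points were in addition called in the difference of responses (7). The dashed line marks equal responses, and every blue or red point lies below it.

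On a linear scale, which does not shrink when a gene starts from a higher level, the R6/2 response of the 23 chaperones was smaller too. The R6/2 gain in CPM was smaller than the wild type gain for all 23 chaperones and ranged from -8.43 to 43.5% of it, with a median of 13.0%, against 29.1% over all genes with a wild type gain above 0. It was below 0 for 4 of them. For the 196 genes outside the chaperone lists that rose in wild type mice the median was 48.3%. All these genes were chosen by a wild type gain in the same mice, which by itself favours a lower R6/2 share. These shares are therefore a description. Over all genes tested the median gain was -0.026 CPM in wild type and 5.9e-05 CPM in R6/2 mice, so 29.1% is no reference level. Among the 44 genes chosen on HSP990-treated mice (below), the R6/2 gain was smaller for all 44. Their median gain was 34.4 CPM in wild type and 4.61 CPM in R6/2 mice.

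**Figure D3:**
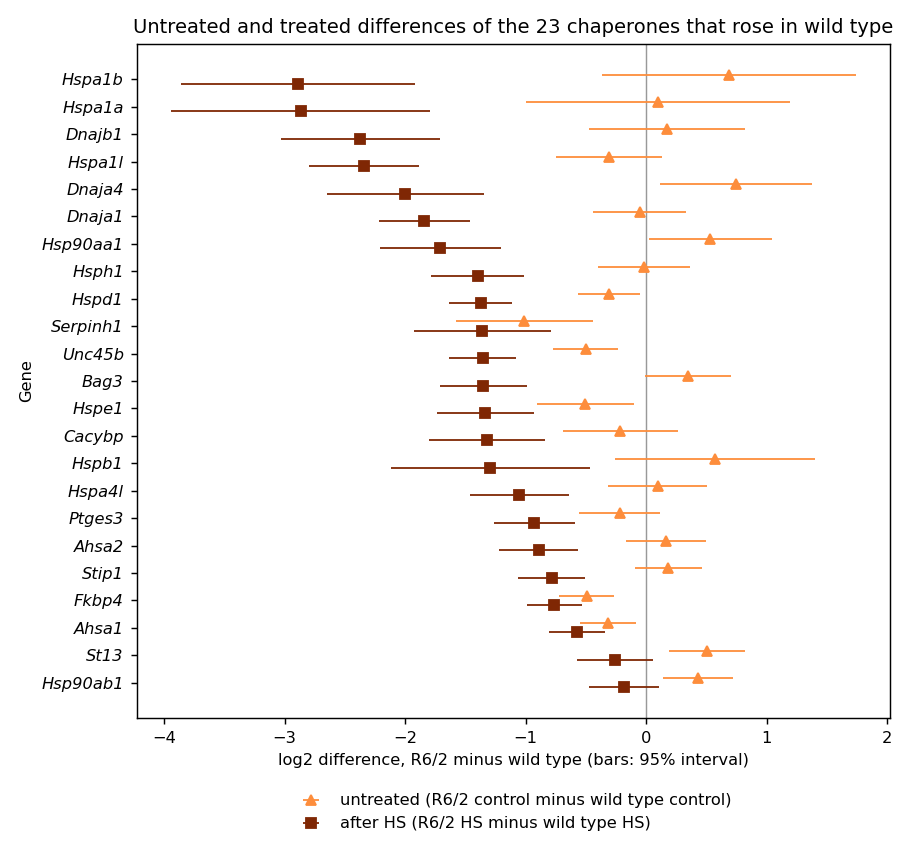
Difference between R6/2 and wild type mice in log2, with 95% intervals from the edgeR fit, for the 23 chaperones that rose in wild type mice, ordered by the treated difference. Orange triangles are the untreated mice and brown squares the mice after HS. The untreated values scatter around 0, between -1.01 and 0.74, and the treated values lie between -2.89 and -0.18.

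In 3 of the 23 the untreated level was called lower as well as the treated one. This count was 0 without R6/2 control mouse 1 or with only the 8 libraries, 1 without wild type control mouse 1 or 2, and 0 with library size only. Serpinh1, the collagen chaperone of the endoplasmic reticulum, was at 112 and 123 CPM in wild type control, 382 and 457 CPM in wild type HS, 40.4 and 76.4 CPM in R6/2 control and 209 and 118 CPM in R6/2 HS mice. R6/2 mice were lower both untreated (log2 -1.01, adjusted p = 0.0211) and after HS (log2 -1.36, adjusted p = 0.00419), and the responses were 3.57-fold in wild type and 2.80-fold in R6/2 mice (difference log2 -0.35, 95% interval -1.14 to 0.44). Without R6/2 control mouse 1 the untreated difference was log2 -0.62 (adjusted p = 0.284) and the difference of responses log2 -0.74, and the latter was log2 0.18 without R6/2 control mouse 2, -0.82 without R6/2 HS mouse 1 and 0.0082 without R6/2 HS mouse 2. Fkbp4, an HSP90 co-chaperone, had the same form with smaller values (untreated log2 -0.49, treated log2 -0.76, difference of responses log2 -0.27). Unc45b, the myosin chaperone of muscle, was lower untreated (log2 -0.50, adjusted p = 0.0175) and lower still after HS (log2 -1.36, adjusted p = 3.15e-05), with a difference of responses of log2 -0.86 (adjusted p = 0.139).

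The opposite form was rare among chaperones. St13, an HSP70-interacting protein, was at 85.7 and 85.4 CPM in wild type control, 140 and 139 CPM in wild type HS, 140 and 102 CPM in R6/2 control and 105 and 128 CPM in R6/2 HS mice, so R6/2 control mouse 1 was already at the wild type HS level. Its untreated difference was called (log2 0.50, adjusted p = 0.036) and its treated difference was not (log2 -0.26, adjusted p = 0.294). The untreated call was lost without R6/2 control mouse 1 (log2 0.25, adjusted p = 0.478), without wild type control mouse 1 (0.155) or 2 (0.152) and with only the 8 libraries (0.135), and the treated difference turned to log2 0.31 with library size only. Hsp90ab1, the constitutive HSP90, was at 1437 and 1571 CPM in wild type control, 2537 and 2556 CPM in wild type HS, 2234 and 1817 CPM in R6/2 control and 2222 and 2270 CPM in R6/2 HS mice. It ended 88.2% as high as in wild type mice after HS from an untreated level 135% as high, and neither difference was called (adjusted p = 0.0503 untreated and 0.442 treated).

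Over all 100 chaperone genes tested, 75 had a difference of responses below 0 (6496 of all 13754 genes), with a median of log2 -0.12. Of these, 27 had an unadjusted p below 0.05 (2.78% of all genes). In 40 of the 100 both R6/2 responses were below both wild type responses (20.2% of all genes). The lists differed. The median difference of responses was log2 -0.14 over 18 HSP70 and HSP110 genes, -0.25 over 17 J-domain genes, all of which were below 0, -0.27 over 19 HSP90 genes and -1.29 over 7 small heat shock proteins and Bag3. It was -0.13 over 8 subunits of the chaperonin CCT, of which 0 rose in wild type mice, -0.05 over 14 mitochondrial chaperones and proteases and -0.0033 over 17 chaperones of the endoplasmic reticulum, of which 1, Serpinh1, rose.

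In all, 17 of the 100 chaperones were called lower in untreated R6/2 mice (6.94% of all genes) and 1 higher (5.5% of all genes). Of the 17, 14 were among the 77 whose wild type response was not called and 3 among the 23 that rose. The count of 17 fell to 2 without R6/2 control mouse 1, to 3 with only the 8 libraries, and to 8 and 5 without wild type control mice 1 and 2. The 17 included the mitochondrial genes Hspa9 (log2 -0.70), Grpel1 (-0.46), Trap1 (-0.37), Clpp (-0.48) and Afg3l2 (-0.39), and Dnaja3, the J-domain partner of mitochondrial HSP70 (-0.65). Hspb6, a small heat shock protein abundant in muscle, had an untreated difference of log2 -1.07 and its treated difference was log2 -1.62 (adjusted p = 0.000139). Untreated differences depend on the scaling, since R6/2 and wild type libraries differ in composition. With library size alone the median untreated difference of all genes moved from 0.01 to 0.55 and the treated one from 0.02 to 0.59, and 1 chaperone was called lower and 52 higher in untreated R6/2 mice. Relative to that shift the direction of the medians was kept: the median over the 23 that rose was log2 0.64 untreated and -0.78 after HS. Of the 23, 14 were still called lower after HS, but 10 were called higher and 0 lower untreated, against 1 and 3 with TMM. The split of the 23 into a lower treated and a higher untreated level therefore depends on the scaling. The difference of responses, in which the scaling of a genotype largely cancels, moved from -1.11 to -1.09 over the 23.

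A set of stress genes was also chosen on other mice, so that the choice did not favour the wild type HS response. HSP990, an inhibitor of HSP90 given at 12 mg/kg, raised 199 genes in wild type mice against vehicle, and for 44 of these the rise was called lower in Hsf1-/- mice, which lack HSF1 and were younger (8 wks). All 44 had a difference of HS responses below 0, with a median difference of log2 -0.89 (39 to 44 were below 0 without single mice, 39 without R6/2 HS mouse 2). Of the 44, 9 were called in the difference of responses (0.0727% of all genes) and 34 had an unadjusted p below 0.05 (2.78%). In 39 of the 44 both R6/2 responses were below both wild type responses (20.2%). For the other 155 genes that HSP990 raised, the median was log2 -0.01, with 80 below 0 and 1 called, Dnaja4. The median wild type HS response was log2 1.22 over the 44, of which 33 rose, and log2 0.11 over the 155, of which 12 rose. Most of the 155 thus had little wild type response that R6/2 mice could fall short of. Of the 155, 22 were below 0 at an unadjusted p below 0.05, and in 46 both R6/2 responses were below both wild type responses. The 44 had a median untreated difference of log2 0.11 and a median treated difference of log2 -0.81, and 31 were called lower after HS (6.33% of all genes) against 3 called lower (6.94%) and 3 called higher (5.5%) untreated.

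**Figure D4:**
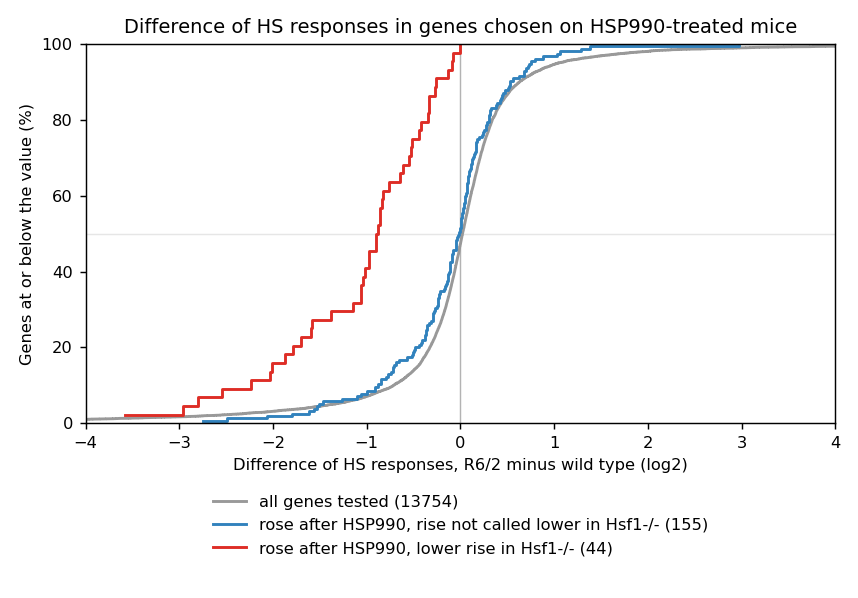
Share of genes (percent, vertical axis) at or below a given difference of HS responses (log2, horizontal axis), for genes chosen on HSP990-treated mice. The red line (44 genes with a lower rise in Hsf1-/- mice) reaches 100% at 0, and the blue line (155 genes whose rise was not called lower) crosses the middle of the genes near 0 (median -0.01), like the grey line of all 13754 genes (median 0.02). The median wild type HS response was log2 1.22 for the 44 and 0.11 for the 155.

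Of the 44, 23 were not in the chaperone lists, and these had a median difference of responses of log2 -0.83 with 3 called (Ankrd34a, Nle1 and Mboat7), against log2 -1.07 over the 21 chaperones. The non-chaperones shown here were picked after their values were seen. Scamp3, a membrane protein of the secretory pathway, was at 50.5 and 50.3 CPM in wild type control, 115 and 118 CPM in wild type HS, 43.6 and 44.6 CPM in R6/2 control and 58.8 and 55.3 CPM in R6/2 HS mice, a log2 difference of responses of -0.83 (adjusted p = 0.0853). Atp2c1, the calcium pump of the Golgi, was at 50.3 and 37.3 CPM in wild type control, 134 and 145 CPM in wild type HS, 86.7 and 65.5 CPM in R6/2 control and 78.3 and 84.0 CPM in R6/2 HS mice (log2 difference -1.58, adjusted p = 0.278). Rbm8a (-0.86) and Tmed8 (-0.98) were alike in direction, with adjusted p of 0.277 and 0.495.

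Outside the chaperones, a higher untreated level was found as well as a lower treated one. Of the 196 other genes that rose in wild type mice, 27 were higher in untreated R6/2 mice and not called after HS (2.76% of all genes), and 32 were lower after HS and not called untreated (2.31% of all genes). These genes too were chosen by a wild type response that uses the same wild type mice, so the counts are a description. The remaining genes were called in neither difference (130) or otherwise (7). Examples of the first kind, chosen after their values were seen, were Aox1 and Zc3h6. Aox1, aldehyde oxidase, was at 45.2 and 43.0 CPM in wild type control, 129 and 151 CPM in wild type HS, 81.9 and 84.0 CPM in R6/2 control and 97.5 and 92.7 CPM in R6/2 HS mice. R6/2 mice started higher (log2 0.91, adjusted p = 0.0121) and the treated difference was not called (log2 -0.56, adjusted p = 0.106). The untreated difference was log2 0.87 to 0.95 without any 1 control mouse, with the call lost without wild type control mouse 1 (adjusted p = 0.0715) or 2 (0.0895) and without R6/2 control mouse 1 (0.0804). Zc3h6 was at 10.1 and 11.1 CPM in wild type control, 18.9 and 19.7 CPM in wild type HS, 21.0 and 18.4 CPM in R6/2 control and 16.4 and 21.1 CPM in R6/2 HS mice, so that only the wild type controls stood apart. Its untreated difference (log2 0.89, adjusted p = 0.00445) lost its call without wild type control mouse 1 (0.0535) and R6/2 control mouse 1 (0.0675), and its treated difference was called with library size only (log2 0.52, adjusted p = 0.0246).

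The stress regulators Cebpb, Cebpd and Cdkn1a also started higher in R6/2 mice and were not called after HS. Cebpd, a C/EBP transcription factor, was at 15.1 and 16.7 CPM in wild type control, 224 and 148 CPM in wild type HS, 109 and 39.2 CPM in R6/2 control and 123 and 158 CPM in R6/2 HS mice (untreated log2 2.22, adjusted p = 0.0144, treated log2 -0.41, adjusted p = 0.675). Cdkn1a, the p21 cell cycle inhibitor, was at 30.3 and 41.5 CPM in wild type control, 163 and 225 CPM in wild type HS, 242 and 52.3 CPM in R6/2 control and 303 and 273 CPM in R6/2 HS mice. R6/2 control mouse 1 carried most of this for Cdkn1a and part of it for Cebpd. Without it the untreated difference fell from log2 2.03 to 0.54 for Cdkn1a and from 2.22 to 1.30 for Cebpd. The difference of responses of Cdkn1a went from -1.47 to 0.03. Of the 28 genes that rose in wild type mice and were called higher untreated but not after HS (the 27 above and St13), 5 were still called higher without that mouse, 7 without wild type control mouse 1, 11 without wild type control mouse 2 and 27 without R6/2 control mouse 2. Of the 28, 14 were still called with only the 8 libraries. Of the 57 that were called lower after HS, a difference in which the control mice have no part, 42 to 50 were still called without 1 of the 4 HS mice, 48 with only the 8 libraries and 33 with library size only.

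**Figure D5:**
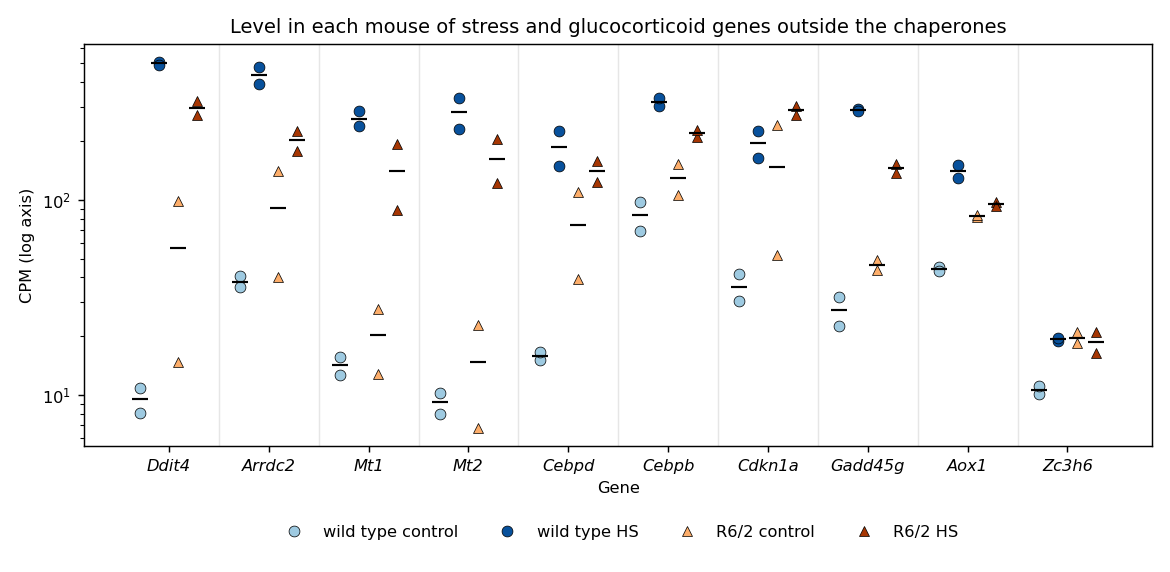
CPM in each mouse (log axis) of 10 genes outside the chaperone lists, with symbols as circles for wild type and triangles for R6/2 mice, light for control and dark for HS, and bars for the means of 2 mice. For Ddit4, Arrdc2, Cebpd and Cdkn1a 1 R6/2 control mouse lies far above the other, whereas for Aox1 and Zc3h6 both R6/2 control mice lie above the wild type controls.

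Targets of the glucocorticoid receptor, which respond to stress hormones, showed the same dependence. Of 20 tested, 12 were called higher after HS in wild type (1.59% of all genes) and 0 in R6/2 mice (0.0436%). In R6/2 mice 19 of the 20 still had a response above 0, 13 of them at an unadjusted p below 0.05 (6905 and 652 of all 13754 genes). In the difference of responses 0 were called (5 at an unadjusted p below 0.05, all below 0). The median was log2 1.68 in wild type and 0.91 in R6/2 mice, with a median untreated difference of 0.51 and a treated one of -0.31, which turned to 0.25 with library size alone. Ddit4, a stress-induced inhibitor of mTORC1, was at 8.14 and 10.9 CPM in wild type control, 506 and 492 CPM in wild type HS, 98.1 and 14.7 CPM in R6/2 control and 320 and 273 CPM in R6/2 HS mice. The same R6/2 control mouse 1 was the higher of its pair for Arrdc2 (141 and 40.4 CPM), Mt1 (27.5 and 12.9 CPM) and Mt2 (22.9 and 6.81 CPM), the last 2 being metallothioneins. Without it the median untreated difference of the 20 was 0.08 and the median difference of responses went from -0.89 to -0.36. Over the 23 chaperones leaving it out moved the median difference of responses from -1.11 to -1.06.

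Of the 16 GADD45, DUSP and C/EBP stress genes, 5 were called higher after HS in wild type mice (1.59% of all genes). In R6/2 mice 0 of the 16 were called higher, near the share of all genes (0.0436%). Their median difference of responses was log2 -0.25. In R6/2 mice 10 of the 16 had a response above 0, 4 of them at an unadjusted p below 0.05 (6905 and 652 of all 13754 genes). Among other lists, immediate early genes had 3 of 23 that rose in wild type mice and a median difference of responses of log2 -0.57. Their members Nr4a3, Maff and Csrnp1 had differences of -1.06, -0.96 and -1.34, none called (adjusted p = 0.989 each). Of 22 ATF4 targets 1, the amino acid transporter Slc7a5, rose in wild type mice, and of 18 NRF2 targets 1, the haem oxygenase Hmox1. Hmox1 was at 7.83 and 8.06 CPM in wild type control, 21.7 and 26.3 CPM in wild type HS, 12.8 and 10.6 CPM in R6/2 control and 13.8 and 10.6 CPM in R6/2 HS mice (log2 difference of responses -1.53, adjusted p = 0.14). Of 19 clock genes 2 rose in wild type mice, Nfil3 and Usp2, and the median difference over the list was log2 0.15. Proteasome subunits (31), BMP and ID genes (19) and heat shock factors (5) had 0 members that rose in wild type or R6/2 mice. Of all genes 1.59% rose in wild type and 0.0436% in R6/2 mice. Counts of 0 or 1 in lists of these sizes are near such shares. The sarcomere and excitation genes (30) had 0 called in any response, with a median untreated difference of log2 -0.59 and a treated one of -1.38. The qPCR reference genes of the study (5 tested) had 0 called in any response. Of these, 3 were called lower untreated (6.94% of all genes), with a median of log2 -0.43, and 1 lower after HS (6.33% of all genes).

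Some genes had a difference of responses near 0. By rule, the 5 genes outside the chaperone lists that were called with a log2 change of at least 1 in wild type mice and had the difference of responses nearest to 0 were Ip6k3, Abi3, Tspan6, Mgat4a and Lnx1. Ip6k3, a muscle inositol hexakisphosphate kinase, was at 83.2 and 113 CPM in wild type control, 239 and 235 CPM in wild type HS, 100 and 74.7 CPM in R6/2 control and 179 and 240 CPM in R6/2 HS mice, with responses of log2 1.28 and 1.26 and a wide interval of their difference (-0.95 to 0.91). Mgat4a, a glycosyltransferase of N-glycans, rose by log2 1.22 in wild type mice and had a response of log2 1.17 in R6/2 mice (adjusted p = 0.0618). Ctla2a, an endothelial cysteine protease inhibitor, was called in both genotypes, at 1.66 and 1.27 CPM in wild type control, 13.1 and 14.9 CPM in wild type HS, 1.74 and 2.38 CPM in R6/2 control and 10.7 and 10.2 CPM in R6/2 HS mice (log2 3.26 and 2.34, difference -0.91, adjusted p = 0.989). The other 5 genes called in the R6/2 response were Hspa1a, Hspa1b, Hsp90aa1, Tinagl1 and Gda. None of the genes with a difference of responses above 0 passed the test (286 at an unadjusted p below 0.05). The 5 largest such differences were those of E2f1 (log2 2.75), Cryzl2 (2.56), Ush1c (2.41), Mycn (2.21) and Aoc2 (2.09), with adjusted p of 0.845 to 0.989 and levels of at most 3.70 CPM in any of the 8 mice. A difference above 0 was not always a larger response. Mycn fell in wild type mice (log2 -3.13, adjusted p = 0.00822) and its R6/2 response was log2 -0.92, and E2f1 had responses of log2 -2.49 in wild type and 0.26 in R6/2 mice, neither called. Ush1c, Cryzl2 and Aoc2 had R6/2 responses of log2 1.75, 1.38 and 2.10, none called, after untreated levels below those of wild type mice (log2 -2.73, -2.40 and -1.83, of which that of Ush1c was called).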

How the data were processed

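RNA of quadriceps femoris muscle of 24 mice, 2 in each of 12 groups, was sequenced from strand-specific polyA libraries with paired reads. Per the labels, reads were mapped to mm9 with Bowtie, and the authors deposited raw counts per gene. The counting program, its strand setting and the annotation are not given in the sources used here. No other normalization had been applied to the deposited counts, and all 24 columns were used (18669 genes, 18594 with a symbol).

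A gene was kept if 10 or more libraries held 2 or more counts of it (13754 genes). The counts were scaled by TMM, and edgeR 4.0.16 under R 4.3.3 fitted 1 mean per group. Comparisons were tested by quasi-likelihood (12 residual degrees of freedom), two-sided, with Benjamini-Hochberg adjustment per comparison and a threshold of 0.05. CPM are TMM-scaled. Nothing says whether the 2 mice of a group shared a litter, and p-values measure only the spread between these mice. An exact permutation test of 2 against 2 mice cannot go below p = 0.333 and was not used. Responses of single mice added 0.5 CPM before taking logarithms. Depth gives the count behind each value and covers counting error only.

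Members and gene lists were chosen with earlier results of these data known. Genes were named by rule: all called in the difference of responses, a panel of 14 chaperone genes, up to 4 called members of each list, chaperones called untreated, 5 genes with the most equal responses and 5 with the largest excess in R6/2 mice, of at least 1 CPM. Others are marked where they appear. Gene coordinates are mm9, promoter windows GRCm38.p6 from RefSeq. The alternatives were RLE, library size only, TMM without the 20 highest genes, no filter, filterByExpr, 8 libraries only, a replicate block, DESeq2 1.42.0, thinned counts, summed Hspa1a and Hspa1b, and leaving out each mouse. Those for the gain in CPM were chosen after seeing the data. On simulated data (13754 genes, 200 changed) the test of the difference of responses called 94 genes, 2 of them not changed, and found 68% of planted log2 changes of -2 and 18% of those of -1. The simulation gave every group the same spread per gene and, apart from the planted changes, the same mean. Changes were planted only in genes with a mean count of 20 or more. The real R6/2 mice differed more within groups than the wild type mice, so these rates need not hold for the real counts.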

Additional observations from a re-analysis of the deposited data

Results flagged for a closer look

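For 10 genes the test of the difference between the R6/2 and the wild type HS response passed the threshold, and in all 10 the signed response was lower in R6/2 mice: Bag3 (log2 difference -1.70), Dnaja1 (-1.79), Hspa1l (-2.03), Mboat7 (-1.60), Ankrd34a (-2.80), Nle1 (-2.01), Hsp90aa1 (-2.24), Dnaja4 (-2.74), Hspd1 (-1.07) and Dnajb1 (-2.55). In all 10 the treated difference was called. Mboat7 was also called higher in untreated R6/2 mice, a call that was lost without wild type control mouse 1 or 2 or R6/2 control mouse 1, and with library size only Bag3, Hsp90aa1 and Dnaja4 were called higher as well. The groups hold 2 mice each, so no single mouse could be tested as standing apart.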

How the results depend on the processing

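The number of genes called in the difference of responses (10) was 9 to 13 under RLE, library size only, TMM without the 20 highest genes, no filter, filterByExpr, thinned counts and a replicate block (11), and these settings kept 9 or all 10 of the genes. It was 0 with only the 8 libraries, whose fit has 4 residual degrees of freedom, 34 with DESeq2 on 24 libraries and 44 with DESeq2 on 8, both of which included all 10. Leaving out single mice gave 0 to 90 genes. It was 0 without wild type control mouse 1 or R6/2 control mouse 1, 2 without wild type control mouse 2 or R6/2 HS mouse 1, and 90 without R6/2 HS mouse 2. In these fits the lone mouse is assumed to vary like the other groups, and the cause was not tested. The log2 difference of each of the 10 stayed below 0 under all 18 alternatives. The wild type response (283 genes) had 542 with DESeq2 on 24 libraries, 504 on 8, and 40 to 326 without single mice (40, 64, 123 and 93 without wild type control mice 1 and 2 and HS mice 1 and 2). The R6/2 response (6) had 3 with library size only, 13 without a filter, 10 with only the 8 libraries, 127 and 185 with DESeq2 on 24 and 8, and 3 to 500 without single mice, 3 being without R6/2 HS mouse 1 and 500 without R6/2 HS mouse 2. The untreated difference (1711) had 6010 with library size only (5756 of them higher, against 757), 604 with only the 8 libraries and 258 to 2132 without single mice, 258 being without R6/2 control mouse 1, and 645 and 649 without wild type control mice 1 and 2. The treated difference (1648) had 6474 with library size only (6231 of them higher, against 778), 562 with only the 8 libraries and 532 to 2395 without single mice, 532 being without wild type HS mouse 1, 731 without wild type HS mouse 2 and 665 without R6/2 HS mouse 1. The wild type response had 161 higher and 155 lower calls with library size only, against 219 and 64. The median difference of responses over the chaperone lists (-0.12) was -0.0658 to -0.2867 without single mice. The median gain of the 23 chaperones (13.0% of the wild type gain) was 17.7% with library size only and 12.3 to 16.9% without single mice. Same-numbered mice did not deviate together (correlations -0.25 to 0.08 over 11085 genes), so the numbers do not pair the mice, and the replicate block changed no count by over 1.5 times.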
